A study of Mus musculus with 16 samples.

Results

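The 3 microRNAs mmu-miR-146a-5p, mmu-miR-146b-5p and mmu-miR-155-5p, which inflammatory signalling is known to induce, were followed in extracellular vesicles (EVs) of mouse bone marrow plasma. They were chosen by name, as rows of the mature microRNA count table, and make up 3 of its 1915 entries. All 16 mice were on the C57BL/6N background, were 6 months old and carried the CAGS-Snorkel reporter, whose HA tag served to capture the vesicles on antibody-coated magnetic beads. In 6 mice (3 male and 3 female) recombination came from Ocn-Cre, a line in which osteocalcin regulatory sequence directs Cre to mature bone-forming cells and osteocytes, and in 10 mice (5 male and 5 female) from Prx1-Cre, which acts in limb bud mesenchyme, so that bone, cartilage and stromal descendants carry the tag as well. The groups are called Ocn and Prx1 here, and libraries carry the replicate number of the labels. Sex is not given per library, and vesicles from mice without Cre were not analysed here, so the level that the beads hold without the tag does not stand beside these values.

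MicroRNAs are short RNAs that guide a silencing complex to messenger RNAs that pair with their seed, the stretch near the 5′ end. The transcription factor NF-kB, activated by Toll-like receptors and by interleukin-1, switches on the genes of miR-146a and miR-155. miR-146a and miR-146b repress the signalling adaptors Irak1 and Traf6 and so damp the same pathway, whereas miR-155, which represses the inhibitors Socs1 and Inpp5d (SHIP1), prolongs it. In marrow miR-146 and miR-155 are best known from myeloid cells and lymphocytes, and both have been found in vesicles that immune cells release.

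The mature sequences from RefSeq (build GRCm38.p6) are shown because the seed, in capitals (bases 2 to 8), splits the 3 into a pair with one target code and a single microRNA with another.
mmu-miR-146a-5p: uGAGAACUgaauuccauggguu
mmu-miR-146b-5p: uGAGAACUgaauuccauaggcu
mmu-miR-155-5p: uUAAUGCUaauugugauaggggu

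miR-146a-5p and miR-146b-5p were identical at 20 of 22 bases. Counted from 1 at the 5′ end of miR-146a-5p, the differences to miR-146b-5p were G18A and U21C, both outside the seed. Among mouse mature microRNAs of the RefSeq table, which matched 1623 of the 1915 entries by name, the seed GAGAACU was found in these 2 and the seed UAAUGCU in miR-155-5p alone. Reads that end early or carry an error near the 3′ end could be counted for either miR-146, and how such reads were assigned is not given in the sources used here.

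The hairpins are printed with the 5p arm, the one measured here, in capitals, since nearly all counts came from that arm.
Mir146: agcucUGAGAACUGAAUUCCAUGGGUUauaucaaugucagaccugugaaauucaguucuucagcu
Mir146b: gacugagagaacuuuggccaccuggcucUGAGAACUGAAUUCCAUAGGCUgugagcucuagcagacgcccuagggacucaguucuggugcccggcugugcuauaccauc
Mir155: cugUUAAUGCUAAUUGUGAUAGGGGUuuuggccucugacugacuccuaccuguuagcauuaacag

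Mir146, the gene of miR-146a, lies on chromosome 11 (43374397 to 43374461, minus strand of mm10) and overlaps no other annotated gene. Mir146b lies on chromosome 19 (46342762 to 46342870, plus strand) inside the protein-coding gene Mfsd13a of the same strand and outside its exons, hence in an intron. Mir155 lies on chromosome 16 (84714140 to 84714204, plus strand) in an exon of its noncoding host transcript Mir155hg, also known as Bic. The 3 microRNAs thus come from 3 separate loci.

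Totals per library were 582660 to 1536421 counts for Ocn and 225273 to 813770 for Prx1, so that depth differed with the group. Levels below are counts scaled to the library total and given per 1e6 counts (CPM). A level rests on 951 to 8378 counts for miR-146a-5p, 375 to 4043 for miR-146b-5p and 116 to 609 for miR-155-5p. All 3 were among the 234 entries kept by the low-count filter and were detected in every library. The numbers of libraries equal the numbers of mice in the design text, and libraries were taken as 1 per mouse.

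miR-146a-5p was the most abundant of the 3 and had nearly the same mean in both groups. In Ocn its level was lowest in Ocn 1 at 4589.7 CPM, had a median of 5565 and was highest in Ocn 3 at 6029. In Prx1 it was lowest in Prx1 6 at 3378 CPM, had a median of 4749.8 and was highest in Prx1 4 at 11626. The 6 Ocn libraries were close together, whereas 5 Prx1 libraries lay below all of them, 4 among them and 1, Prx1 4, far above.

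Prx1 4 stood apart for miR-146a-5p alone among the 3. Its 2619 counts gave 11626 CPM with an exact 95% Poisson interval of 11185 to 12080, which covers counting error only, and the next Prx1 library, Prx1 2, reached 5872 CPM. The level in Prx1 4 was 2.74 times the median of the other 9 Prx1 libraries, against 1.20 times for miR-146b-5p and 1.14 times for miR-155-5p. In rank, miR-146a-5p was entry 17 of Prx1 4 by count and entry 29 to 36 of every other library. Prx1 4 was also the shallowest library, with 225273 counts; the part of depth in this value was not tested.

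miR-146b-5p shares the seed of miR-146a-5p at a lower level. In Ocn it ran from 1675 CPM in Ocn 3 over a median of 1978 to 2843 in Ocn 6. Within Prx1 the range was wider, from 1332 CPM in Prx1 6 over a median of 2545 to 3042 in Prx1 10. A pair of Prx1 libraries, Prx1 6 and Prx1 7 (1342 CPM), lay below every Ocn library, 3 lay above them and 5 among them. Its count ranked 41 to 57 within the libraries.

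miR-155-5p had the lowest level of the 3 and the smallest relative spread. The Ocn libraries ran from 334 CPM in Ocn 6 over a median of 404 to 462 in Ocn 4. For Prx1 the values were 369 CPM in Prx1 10, a median of 459.8 and 561 in Prx1 6. Here 5 of 10 Prx1 libraries lay above all Ocn libraries, 5 lay within their range and 0 lay below it. The coefficient of variation was 10.3% in Ocn and 13.7% in Prx1, where counting error alone gives 5.55% and 7.68%.

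**Figure D1:**
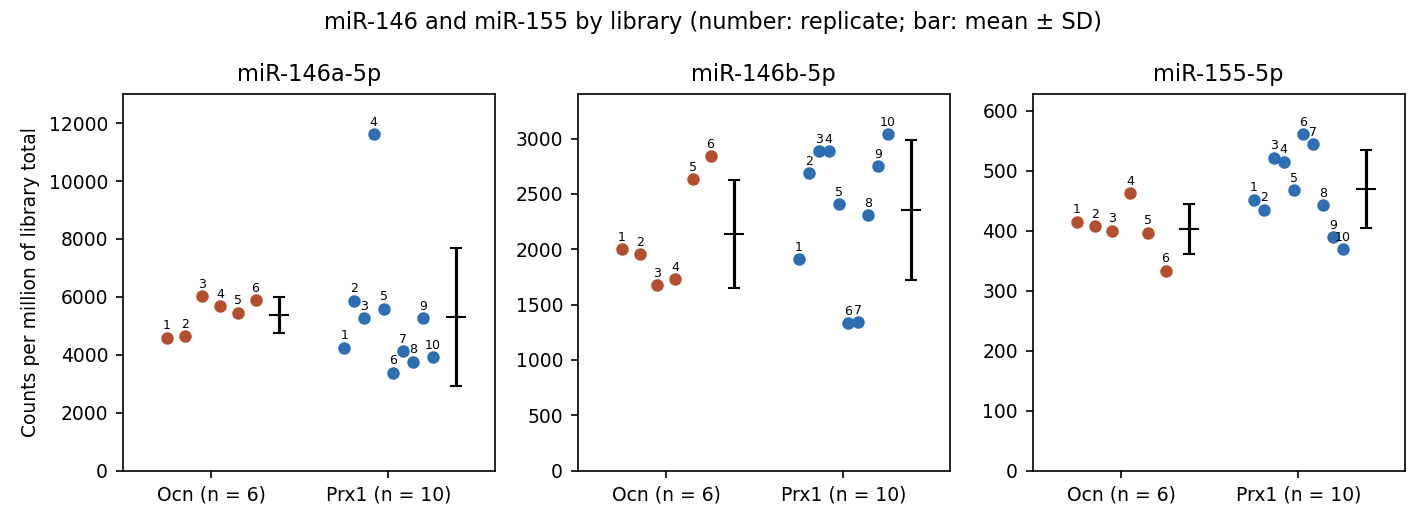
Level of each microRNA (y axis, CPM, from 0) in the 6 Ocn and 10 Prx1 libraries; points are libraries with their replicate number, and bars give the mean ± SD. Prx1 4 stands at 11626 for miR-146a-5p, Prx1 6 and Prx1 7 are lowest for miR-146b-5p and highest for miR-155-5p, and the groups overlap in every panel.

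The design compares vesicles captured with the osteoblast driver with those captured with the limb mesenchyme driver. None of the 3 microRNAs passed the test between them, which was the quasi-likelihood F test of edgeR over all 234 entries with Benjamini-Hochberg adjustment and a threshold of 0.05. By comparison, 32 of 234 entries, or 13.7%, passed it. At an unadjusted p under 0.05 the count of the 3 was 0 with edgeR in its main setting, 1 with DESeq2 (miR-155-5p) and 0 with limma voom. Over all entries tested by each tool, 26.5% passed that unadjusted threshold with edgeR, 19.2% with DESeq2 and 29.1% with limma voom. For none of the 3 were the libraries of the groups apart, while 3.85% of the tested entries showed no overlap.

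For miR-146a-5p, with 5379.6 ± 623 CPM in Ocn (SD, n = 6) and 5301 ± 2379 CPM in Prx1 (SD, n = 10), the log2 fold change of Ocn over Prx1 was -0.001 (SE 0.20, edgeR adjusted p = 0.999). Its 95% interval ran from -0.41 to 0.41. Leaving out Prx1 4 turned the direction: the Prx1 mean became 4599 ± 901 CPM (SD, n = 9), the log2 fold change 0.21 and its SE 0.13 (edgeR adjusted p = 0.281). Over the 27 alternatives the adjusted p ran from 0.281 to 0.999. With library depth, as the log10 of its total, added to the model, a term that moves with the group, the log2 fold change was 0.38 (SE 0.29, edgeR adjusted p = 0.519).

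For miR-146b-5p, with 2139 ± 485 CPM in Ocn (SD, n = 6) and 2355 ± 630.3 CPM in Prx1 (SD, n = 10), the log2 fold change was -0.16 (SE 0.18, edgeR adjusted p = 0.606). The 95% interval of -0.53 to 0.20 leaves room for a difference of either sign. Without Ocn 3, the library with the lowest Ocn value, it was -0.02 (edgeR adjusted p = 0.951).

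For miR-155-5p, with 402 ± 41 CPM in Ocn (SD, n = 6) and 469.7 ± 64.5 CPM in Prx1 (SD, n = 10), the log2 fold change was -0.25 (SE 0.12, edgeR adjusted p = 0.182), a 1.19-fold higher fitted level in Prx1. The 95% interval ran from -0.50 to 0.00064, and the unadjusted p was 0.0505. The 2-sided exact permutation test of log2 CPM gave unadjusted p-values of 0.0422 for miR-155-5p, 0.669 for miR-146a-5p and 0.595 for miR-146b-5p. Without Prx1 4 these exact permutation p-values were 0.0655, 0.0851 and 0.734. By its unadjusted p the microRNA ranked 65 of 234. The sign was the same in all 27 alternatives, in none of which the adjusted p passed (0.103 to 0.732). The unadjusted p was under 0.05 in 6 of the 27, 3 of these with 1 library left out. With the depth term the log2 fold change shrank to -0.14 (SE 0.19, edgeR adjusted p = 0.732).

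**Figure D2:**
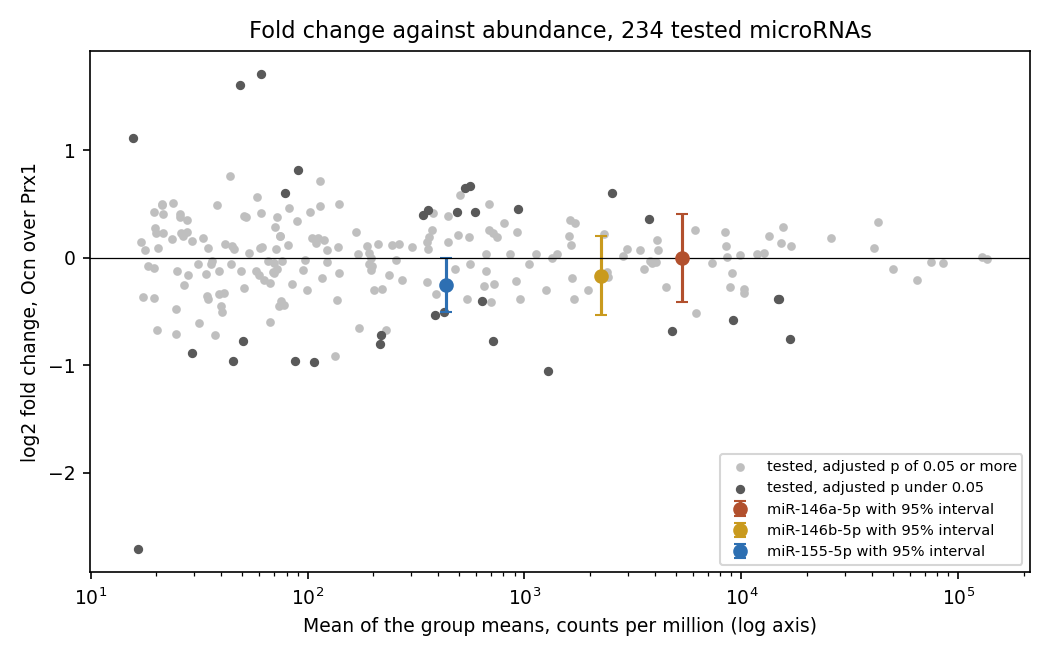
Log2 fold change of Ocn over Prx1 (y axis) against the mean of the group means in CPM (x axis, log scale) for 234 tested microRNAs, dark where the edgeR adjusted p is under 0.05; the 3 coloured points carry 95% intervals. All 3 intervals include 0, and their log2 fold changes of -0.001, -0.16 and -0.25 lie among entries that did not pass.

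A ratio of 2 microRNAs in the same library does not depend on how the library is scaled. The order of miR-146a-5p over miR-146b-5p over miR-155-5p held in 6 of 6 Ocn and 10 of 10 Prx1 libraries. Mature microRNAs are of nearly equal length, but adaptors can join to different sequences with different yield, so such ratios compare counts and need not equal ratios of molecules.

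Counts of miR-146a-5p were 2.62 ± 0.66 times those of miR-146b-5p in Ocn (SD, n = 6) and 2.30 ± 0.78 times in Prx1 (SD, n = 10). The ratio ran from 2.07 to 3.60 in Ocn and from 1.28 in Prx1 10 to 4.03 in Prx1 4. Expressed as a share, miR-146a-5p supplied 71.6% of the summed miR-146 counts in Ocn and 68.3% in Prx1 on average, with a range of 56.2% to 80.1% within Prx1. The summed miR-146 level was 7518 ± 842 CPM in Ocn (SD, n = 6) and 7656 ± 2729 CPM in Prx1 (SD, n = 10). Within this pair with a common seed, the balance thus varied more between Prx1 libraries than the group means differed.

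miR-146a-5p, the brake on the pathway, was 13.5 ± 2.5 times as frequent as miR-155-5p in Ocn (SD, n = 6) and 11.3 ± 4.6 times in Prx1 (SD, n = 10). In Prx1 the ratio ran from 6.00 in Prx1 6 to 22.5 in Prx1 4, with 6 libraries below the Ocn range of 11.0 to 17.6. miR-146b-5p was 5.44 ± 1.80 times as frequent as miR-155-5p in Ocn and 5.19 ± 1.83 times in Prx1 (SD, n = 6 and 10), with 2.37 in Prx1 6 as the lowest value and 8.51 in Ocn 6 as the highest.

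Of 3 ratios compared between the groups by 2-sided exact permutation tests, 0 passed, adjusted or unadjusted. The log2 difference of Ocn minus Prx1 was 0.22 for miR-146a-5p to miR-146b-5p (exact permutation p = 0.336, adjusted p = 0.505), 0.33 for miR-146a-5p to miR-155-5p (exact permutation p = 0.185, adjusted p = 0.505) and 0.11 for miR-146b-5p to miR-155-5p (exact permutation p = 0.713, adjusted p = 0.713). Without Prx1 4 the second became 0.45 (exact permutation p = 0.0290, adjusted p = 0.0869).

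**Figure D3:**
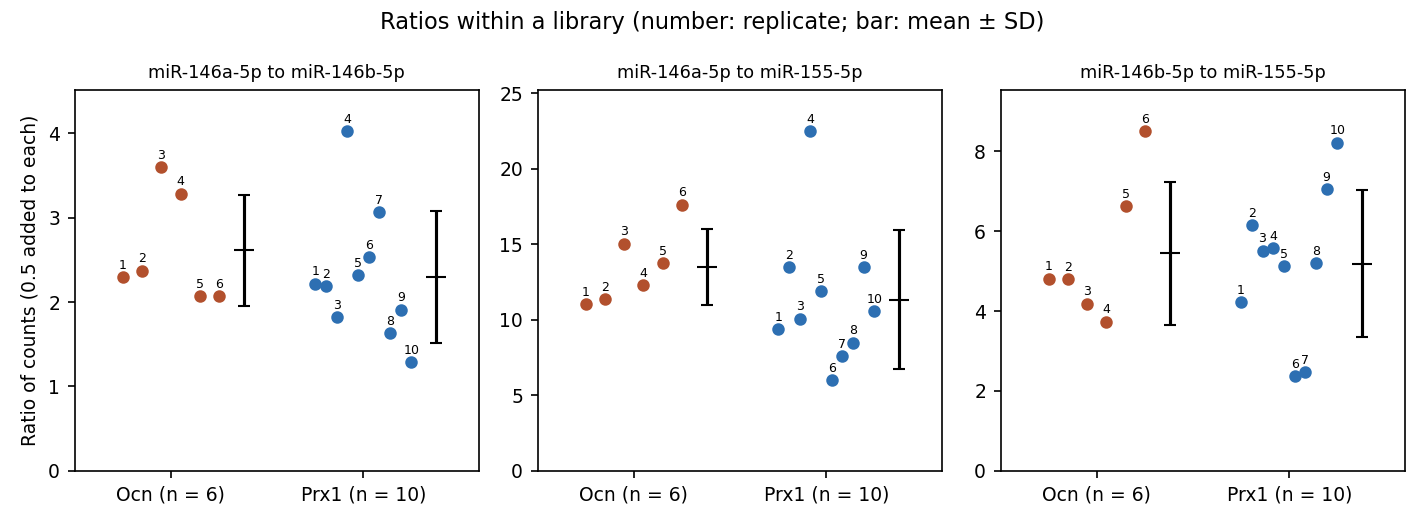
Ratio of the counts of each pair of microRNAs within a library (y axis, from 0) for 6 Ocn and 10 Prx1 libraries, with replicate numbers; bars give the mean ± SD. Prx1 4 is highest in the panels with miR-146a-5p over miR-146b-5p (4.03) and over miR-155-5p (22.5), and Prx1 6 is lowest for miR-146b-5p over miR-155-5p (2.37).

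The opposite arms of the hairpins were hardly seen. miR-146a-3p had 1 count, in Ocn 4, against 50382 counts of miR-146a-5p over the 16 libraries, a share of 0.0020% (exact Clopper-Pearson 95% interval 0.000050% to 0.011%). miR-146b-3p had 11 counts in 8 libraries, 4 of each group, against 21963 of the 5p arm, or 0.050% (exact interval 0.025% to 0.090%). miR-155-3p had 0 counts beside 4130 of the 5p arm, which allows a share of up to 0.073% by the limit of 3 counts for a count of 0, and 0.089% by the exact interval. No library reached the 10 counts set as the minimum for a test of arm usage, so none was made.

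Across the 16 libraries the 3 microRNAs did not move together past the threshold. For miR-146a-5p and miR-146b-5p, Pearson's r of log2 CPM was 0.44 (permutation p = 0.0868, adjusted over 3 pairs p = 0.130) and Spearman's rho 0.31 (permutation p = 0.245, adjusted p = 0.367). Without Prx1 4 and Prx1 6, the 2 libraries farthest from the median of miR-146a-5p, r was 0.16. Within groups, r was 0.09 in Ocn (n = 6, exact permutation p = 0.872) and 0.53 in Prx1 (n = 10, permutation p = 0.116). The pooled value thus rested on those 2 libraries.

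miR-146b-5p and miR-155-5p ran against each other, with r of -0.48 (permutation p = 0.0634, adjusted p = 0.130) and rho of -0.40 (permutation p = 0.127, adjusted p = 0.367), short of the threshold. The same sign was seen within Ocn (r = -0.77, n = 6, exact permutation p = 0.0444) and within Prx1 (r = -0.61, n = 10, permutation p = 0.0635). With TMM-scaled levels these became -0.41 in Ocn (n = 6, exact permutation p = 0.421) and -0.74 in Prx1 (n = 10, permutation p = 0.0172). Which group had a p under 0.05 thus depended on the scaling, and these p-values within groups were not adjusted. Spearman's rho on CPM of library totals was -0.60 in Ocn (n = 6, exact permutation p = 0.242) and -0.54 in Prx1 (n = 10, permutation p = 0.115). Prx1 6 and Prx1 7 had the lowest miR-146b-5p and the highest miR-155-5p of all libraries, and without them r was -0.08. At the other end, Ocn 6 and Prx1 10 each combined the highest miR-146b-5p of their group with the lowest miR-155-5p. For miR-146a-5p and miR-155-5p, r was -0.02 (permutation p = 0.935, adjusted p = 0.935) and rho -0.20 (permutation p = 0.462, adjusted p = 0.462). Without Prx1 4 and Prx1 6 that r was -0.20, and within groups it was -0.28 in Ocn (n = 6, exact permutation p = 0.589) and 0.10 in Prx1 (n = 10, permutation p = 0.796).

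**Figure D4:**
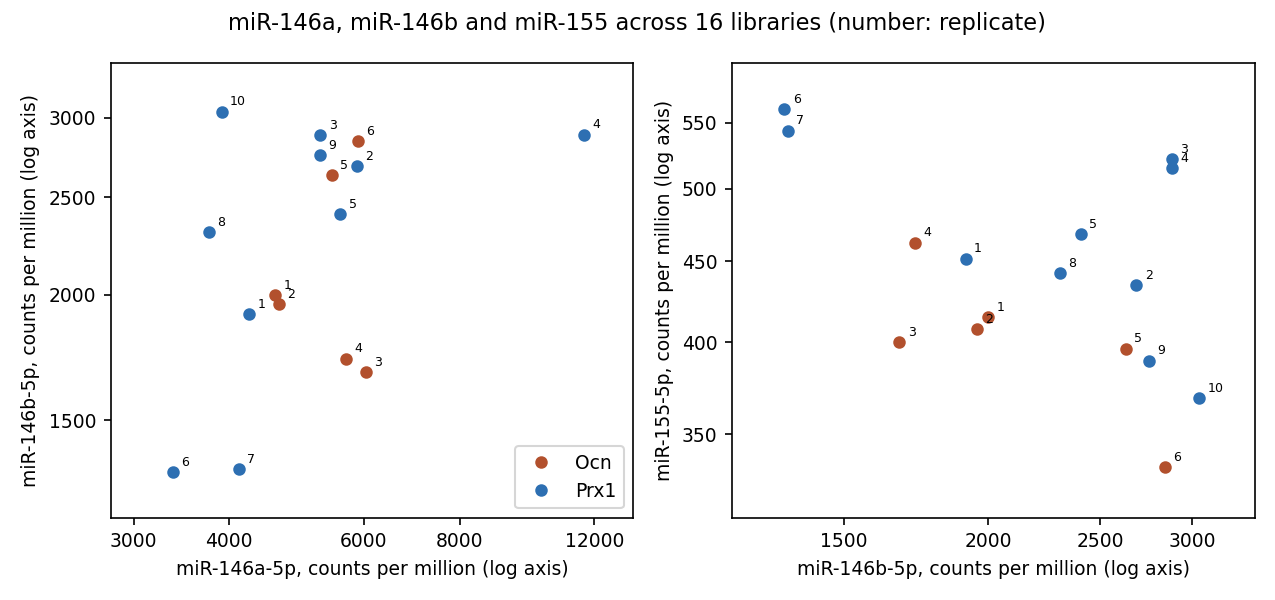
Level of miR-146b-5p against miR-146a-5p (left) and of miR-155-5p against miR-146b-5p (right), in CPM on log axes, 1 point per library with its replicate number, Ocn and Prx1 in different colours. On the left Prx1 4 lies far to the right of the others at 11626; on the right Prx1 6 and Prx1 7 form the upper left corner and Ocn 6 and Prx1 10 the lower right.

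The entries whose profile over the 16 libraries was most like that of each microRNA, by Spearman's rho of log2 CPM among 231 others, are given as a description. Profiles share the library total and its composition. Nearest to miR-146b-5p were miR-361-3p (rho = 0.83, permutation p = 0.00015, adjusted p = 0.0346; Pearson's r = 0.88, permutation p = 0.00001, the smallest that the resampling can give, adjusted p = 0.0023), miR-140-3p (rho = 0.79, permutation p = 0.00049, adjusted p = 0.0381; r = 0.82, permutation p = 0.00014, adjusted p = 0.0108) and miR-708-3p (rho = 0.78, permutation p = 0.00065, adjusted p = 0.0381; r = 0.80, permutation p = 0.00024, adjusted p = 0.0139). Leaving out Prx1 6 and Prx1 7 left r at 0.75, 0.71 and 0.76. Within the groups the rho of miR-361-3p was 0.89 in Ocn (n = 6) and 0.73 in Prx1 (n = 10), while that of miR-140-3p, a microRNA of cartilage, was 0.14 and 0.84 and that of miR-708-3p 0.20 and 0.84.

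For miR-155-5p the nearest were miR-423-5p (rho = 0.78, permutation p = 0.00053, adjusted p = 0.122; r = 0.62, permutation p = 0.00907, adjusted p = 0.252), miR-674-5p (rho = 0.66, permutation p = 0.0064, adjusted p = 0.295; r = 0.71, permutation p = 0.00179, adjusted p = 0.225) and miR-320-3p (rho = 0.64, permutation p = 0.00945, adjusted p = 0.295; r = 0.70, permutation p = 0.00258, adjusted p = 0.225). Without Ocn 6 and Prx1 6 their r was 0.56, 0.60 and 0.49. For miR-146a-5p they were miR-210-3p (rho = 0.66, permutation p = 0.00595, adjusted p = 0.490; r = 0.57, permutation p = 0.0279, adjusted p = 0.465), miR-340-5p (rho = 0.66, permutation p = 0.00637, adjusted p = 0.490; r = 0.31, permutation p = 0.226, adjusted p = 0.696) and miR-125b-2-3p (rho = 0.60, permutation p = 0.0162, adjusted p = 0.536; r = 0.61, permutation p = 0.0115, adjusted p = 0.441). Without Prx1 4 and Prx1 6 the latter r became 0.68, 0.65 and 0.38. None of these 6 passed after adjustment, and miR-146a-5p and miR-146b-5p had no nearest entry in common.

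Other microRNAs tied to NF-kB were read from 2 lists. Of 12 reported to be induced by NF-kB or Toll-like receptor signals, 9 were tested and 0 passed with edgeR in either direction, with 1 at an unadjusted p under 0.05, where 13.7% and 26.5% of all tested entries passed. DESeq2 called 0 of 10 (9.83% of all its tested entries), and limma voom called 1 of 9 (20.5% of all), miR-99b-5p, which was lower in Ocn. Without Prx1 8 edgeR called 1 of 7 that were then tested, miR-9-5p, higher in Ocn (0.62, SE 0.21, edgeR adjusted p = 0.0481). In that setting 20 of all 215 tested entries were called higher and 16 lower. The median log2 fold change of the 9 was 0.04, beside 0.01 for all 234 entries, and 7 of 9 lay above 0. None of the abundant members passed: miR-21a-5p, which NF-kB and Stat3 induce in inflamed tissue, had 13044 ± 2160 CPM in Ocn (SD, n = 6) and 12330.1 ± 2031 CPM in Prx1 (SD, n = 10), and its log2 fold change was 0.04 (SE 0.12, edgeR adjusted p = 0.850). For miR-125b-5p the log2 fold change was 0.04 (SE 0.16, edgeR adjusted p = 0.885), with Ocn 3 at 16601 CPM and the others of its group at 10567 to 11672 CPM, and for miR-221-3p it was -0.24 (SE 0.13, edgeR adjusted p = 0.232). miR-99b-5p had -0.26 (SE 0.11, edgeR adjusted p = 0.117).

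Of 7 microRNAs reported to restrain NF-kB signalling, all tested, 1 was higher in Ocn, 0 were lower and 6 did not pass, where 5.98% of all tested entries were called higher and 7.69% lower. The one was miR-199a-5p, reported to repress the kinase Ikbkb, with 683 ± 191 CPM in Ocn (SD, n = 6) and 494 ± 75 CPM in Prx1 (SD, n = 10), and its log2 fold change was 0.43 (SE 0.13, edgeR adjusted p = 0.0290). It is also a microRNA of mesenchymal cells. Leaving out any 1 of 7 libraries ended the call (Ocn 3, Ocn 4, Prx1 1, Prx1 2, Prx1 3, Prx1 6 or Prx1 10; edgeR adjusted p = 0.0572 to 0.0836), and the Ocn mean included 1066 CPM in Ocn 3 beside 566 to 663 CPM elsewhere. Next by unadjusted p came miR-15a-5p (0.39, SE 0.15, edgeR adjusted p = 0.0883) and miR-181b-5p (0.26, SE 0.11, edgeR adjusted p = 0.135). With upper quartile factors 3 of 7 were higher, where 26 of all 234 tested entries were called higher. Both passed there beside miR-199a-5p (edgeR adjusted p = 0.0097 for miR-15a-5p and 0.0385 for miR-181b-5p). Without Ocn 5 they passed too (edgeR adjusted p = 0.0384 and 0.0394). In that setting 3 of the 6 list members tested were higher, where 15 of all 217 tested entries were called higher. miR-15a-5p also passed without Ocn 6, Prx1 8 or Prx1 9 (edgeR adjusted p = 0.0216, 0.0415 and 0.0485). The myeloid miR-223-3p had -0.27 (SE 0.14, edgeR adjusted p = 0.229), miR-10a-5p 0.09 (SE 0.11, edgeR adjusted p = 0.688) and miR-16-5p -0.01 (SE 0.10, edgeR adjusted p = 0.936). The median of the 7 was 0.09.

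**Figure D5:**
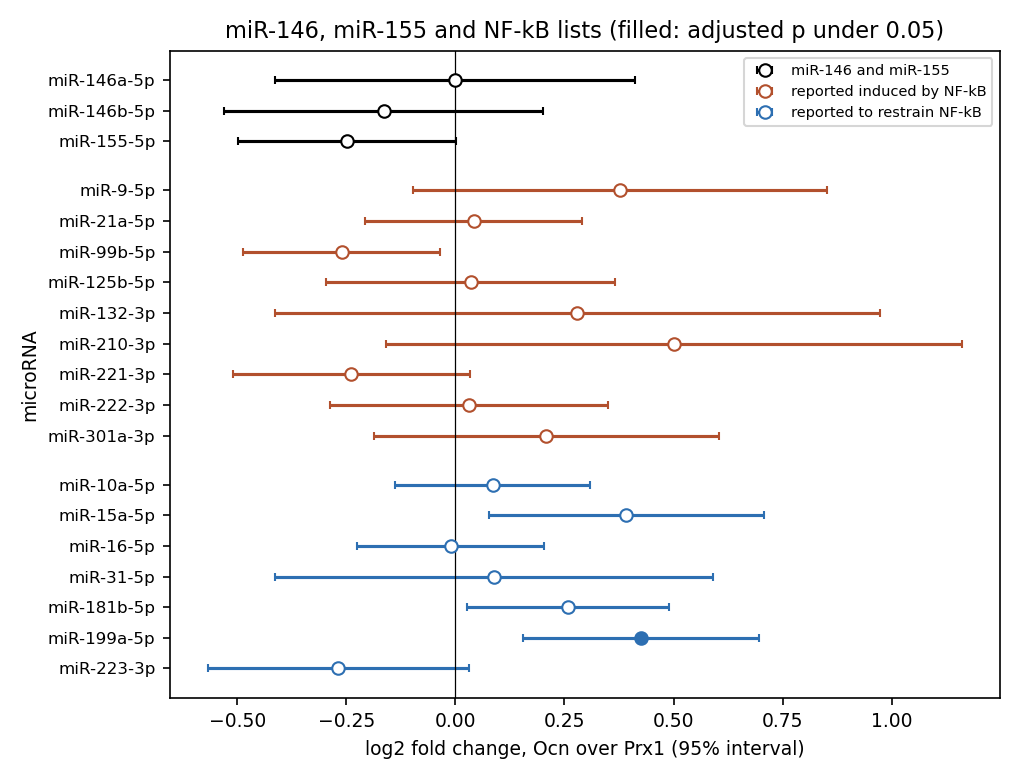
Log2 fold change of Ocn over Prx1 with its 95% interval (x axis) for the 3 microRNAs and for the tested members of the NF-kB lists (y axis), filled where the edgeR adjusted p is under 0.05. miR-199a-5p at 0.43 is the one filled point.

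Since miR-146 and miR-155 are known from immune cells, microRNAs that mark cell types were read in the same libraries; of all tested entries 5.98% were called higher in Ocn, 7.69% lower and 13.7% either way. The 4 myeloid and pan-leukocyte entries (both arms of miR-223 and of miR-142a) were detected in all libraries, with a summed level of 39360 to 94638 CPM in Ocn and 42431 to 69316 CPM in Prx1, and with edgeR 0 of 4 passed (0 at an unadjusted p under 0.05, and 0 with DESeq2 or limma voom). In Prx1 4 the sum was 61747 CPM, within the range of the other Prx1 libraries, while miR-223-3p and miR-142a-3p stood there at 1.35 and 1.29 times the median of those libraries. The lymphoid pair miR-150-5p and miR-342-3p summed to 2019 to 4495 CPM in Ocn and 2779.9 to 5828 CPM in Prx1, with 1 of 2 lower in Ocn (miR-150-5p). Its level was 848 ± 228 CPM in Ocn (SD, n = 6) and 1713 ± 558 CPM in Prx1 (SD, n = 10). The log2 fold change was -1.05 (SE 0.20, edgeR adjusted p = 0.00125), and that of miR-342-3p was -0.17 (SE 0.20, edgeR adjusted p = 0.640). With the depth covariate 0 of 2 were called. The 5 mesenchymal entries summed to 31426 to 43032 CPM in Ocn and 26518 to 34989 CPM in Prx1, with Prx1 4 the highest Prx1 library; 1 of 5 was higher in Ocn, miR-199a-5p again. The endothelial and platelet pair summed to 16712 to 20837 CPM in Ocn and 12913 to 19289 CPM in Prx1, with Prx1 4 the lowest Prx1 library and 0 of 2 called (0 at an unadjusted p under 0.05, and 0 with DESeq2 or limma voom). The 3 erythroid entries summed to 11591 to 20691 CPM in Ocn and 15607 to 23278 CPM in Prx1, with 1 of 3 lower in Ocn, miR-486a-5p (-0.38, SE 0.13, edgeR adjusted p = 0.0451), and with miR-144-3p at 0.58 (SE 0.20, edgeR adjusted p = 0.0569). No erythroid entry was called lower with RLE or upper quartile factors, library totals alone, either other filter, thinned counts, the depth covariate or the block. The same held without Ocn 2, Ocn 4, Ocn 5, Ocn 6, Prx1 8, Prx1 9 or Prx1 10. An erythroid entry was called higher with limma voom, upper quartile factors or no filter, and without Ocn 6, Prx1 4 or Prx1 5. Over all tested entries, 24 of 234, 26 of 234 and 14 of 973 were called higher in the first 3 of these settings. Without Ocn 6, Prx1 4 or Prx1 5 it was 17 of 219, 17 of 240 and 13 of 241. The 3 muscle entries summed to 46679.5 to 77323 CPM in Ocn and 39775 to 70705 CPM in Prx1, with 1 of 3 lower in Ocn, miR-133a-3p (-0.68, SE 0.16, edgeR adjusted p = 0.0082). The most abundant of them, miR-1a-3p, went the other way (0.34, SE 0.17, edgeR adjusted p = 0.187). For miR-206-3p it was -0.29 (SE 0.24, edgeR adjusted p = 0.487). Without a filter 1 muscle entry was called higher and 1 lower, where 14 of all 973 were called higher and 13 lower. With the depth covariate 0 of 3 were called, and 0 of all 234. The liver marker miR-122-5p was at 0 counts in Prx1 6 and Prx1 7 and reached 1644 CPM in 1 Prx1 library, Prx1 5, where the 3 microRNAs lay within the range of the other libraries. The part of these cell types in the levels of miR-146 and miR-155 was not tested, and in vesicles fewer contributing cells and less RNA per cell cannot be told apart.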

How the data were processed

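Small RNA of HA-captured EVs was sequenced in 6 Ocn-Cre and 10 Prx1-Cre mice; per the labels' protocols, QIAseq libraries were made from 1 ng of RNA. The deposited values are raw counts per mature microRNA, not normalized by the authors; the unit was taken from the values. The tool cutadapt 1.18 and the build mm10 stand in the labels, per the submitters' processing notes. Not given in the sources used here are the aligner, the annotation and whether reads or molecular identifiers were counted. The Poisson and Clopper-Pearson intervals cover counting error only and take each count as independent. The edgeR intervals of log2 fold changes also include the spread between libraries.

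Groups came from the sample titles. Counts were tested with edgeR 4.0.16 in R 4.3.3 (filterByExpr, TMM factors, robust quasi-likelihood fit, group as the only term) over 234 of 1915 entries, with Benjamini-Hochberg adjustment. The SE was derived from the F statistic (absolute log2 fold change over its root). CPM use library totals. Ratios had 0.5 added to each count and correlations 1 CPM, with exact permutation tests or 100000 resamples (Python 3.11.15). In 10 simulated sets the edgeR test called 56.1% of tested entries changed 1.5-fold, 86.7% at 2-fold and 99.4% at 4-fold. Of unchanged entries it called 0.537%, and changes smaller than 1.5-fold were not simulated. The rule for names covered the 3 microRNAs, their 3p arms, the 3 most abundant and any called members of the NF-kB lists and the 3 nearest profiles; miR-9-5p, miR-99b-5p, miR-15a-5p and miR-181b-5p and the marker entries stand outside it and were named after their values were seen. The microRNAs and lists were chosen with earlier results of these data known. Alternatives were DESeq2 1.42.0, limma 3.58.1 voom, other scalings and filters, thinned counts, a depth covariate, a block on the replicate number and each library left out in turn.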

Additional observations from a re-analysis of the deposited data

Results flagged for a closer look

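Among 44 sets of values checked, each of 1 quantity in 1 group, 7 held a library far from the others by Dixon's test. The test's nominal rate is 5% for a single set. It is not the rate for these sets, since some share counts and the nearest profiles were picked from these same data. Prx1 4 was highest for miR-146a-5p at 11626 CPM, where the other Prx1 libraries ran from 3378 to 5872 CPM, and for the ratio of miR-146a-5p to miR-155-5p at 22.5, where the others ran from 6.00 to 13.5. These 2 sets share the counts of miR-146a-5p. The same library was highest for miR-125b-2-3p, which was picked for its likeness to miR-146a-5p, at 97.7 CPM, where the others ran from 32.8 to 60.1 CPM. Ocn 3 was highest for miR-125b-5p at 16601 CPM (others 10567 to 11672 CPM) and for miR-199a-5p at 1066 CPM (others 566 to 663 CPM). Ocn 2 was highest for miR-16-5p at 167189 CPM (others 124048 to 140085 CPM), and Prx1 7 for miR-674-5p at 175 CPM (others 75.4 to 128 CPM).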

How the results depend on the processing

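No alternative brought miR-146a-5p, miR-146b-5p or miR-155-5p past the threshold. The sign was the same in all 27 alternatives for miR-146b-5p (-0.28 to -0.02) and miR-155-5p (-0.33 to -0.12). miR-146a-5p, at -0.001, turned positive with limma voom (0.044), upper quartile factors (0.11), library totals alone (0.022), no low-count filter (0.081), a filter of 10 CPM in 6 libraries (0.0025) and the depth covariate (0.38), and ran from -0.075 to 0.21 with 1 library left out. Upper quartile factors shifted the median entry by 0.12 on the log2 scale; relative to that median the 3 microRNAs stood at -0.03, -0.17 and -0.25 under them and at -0.01, -0.17 and -0.26 with TMM. The 32 calls over all entries became 10 with thinned counts (44 at an unadjusted p under 0.05) and 0 with the depth covariate in edgeR (40 at an unadjusted p under 0.05; DESeq2 without it called 40), 24 to 36 with 1 library left out, and 26 higher and 11 lower in place of 14 and 18 with upper quartile factors. With the replicate number as a block the count was 27 and the 3 log2 fold changes were -0.08, -0.16 and -0.32. Paired by the numbers of the labels, libraries correlated at 0.015 to 0.22 after removal of the group means, with 2 of 6 pairs above 0.1. Of the Ocn libraries 0 of 6 correlated best with its own number. Whether libraries of the same number were handled together was not tested. The difference in the ratio of miR-146b-5p to miR-155-5p ran from -0.034 to 0.20 with 1 library left out. Below the threshold throughout, miR-21a-5p turned negative with limma voom (-0.0058) and the block (-0.070), miR-16-5p positive with upper quartile factors (0.12), library totals (0.019) and no filter (0.062), and with 1 library left out the ranges were -0.0046 to 0.11 for miR-21a-5p, -0.058 to 0.084 for miR-16-5p and -0.049 to 0.12 for miR-125b-5p. The call of miR-199a-5p was also lost without a filter, after thinning, with the depth covariate and with the block (edgeR adjusted p = 0.0572 to 0.135), and the block called miR-223-3p lower in Ocn (-0.41, edgeR adjusted p = 0.0474). The cause of these changes was not tested. The arm ratios could not be tested, as the 3p counts were too low. Depth limits miR-155-5p most, with 116 counts in Prx1 4.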

Other observations

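By its level in Prx1 4 over the median of the other 9 Prx1 libraries, miR-146a-5p ranked 5 among all 234 tested entries. Among the 63 entries with a median of at least 1000 CPM in those 9 libraries, it was the one raised most, at 2.74 times that median. The next, chosen after its value was seen, was miR-196b-5p at 1.36 times (3298 against 2416 CPM), followed by the leukocyte entries miR-223-3p at 1.35 times and miR-142a-3p at 1.29 times, both of which were within the range of the other Prx1 libraries. Over all 234 tested entries Prx1 4 stood apart as the highest Prx1 library in 2, miR-146a-5p and miR-125b-2-3p, while Ocn 3 stood apart as the highest Ocn library in 22.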
